A study of Mus musculus with 6 samples.

Results

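Most of the genes described here encode proteins that repackage the genome of the male germ cell. They are the testis linker histones H1f6 (H1t), H1f7 (H1t2) and H1f9 (Hils1) and the testis core histone H2bc1 (TH2B). The others are the transition proteins Tnp1 and Tnp2 and the protamines Prm1 and Prm2. Prm3 is listed with the protamines by its name and is not taken here as a DNA-packing protein. The other genes were named by role, and all with earlier results of these data known. Every probe set whose single gene symbol is one of them, older names included, was taken. Of the 9 listed genes 8 have a probe set, 12 probe sets in all, among 18193 genes with a probe set of 1 symbol on the array. H2bc1 matched none and was not analysed here. The arrays hold testis RNA of mice aged 21 days after birth, 3 samples labelled Nxf2 knockout (KO) and 3 labelled wild type (WT), each on its own Affymetrix array. The sources used here give neither the strain nor the allele of Nxf2 nor the number of animals per sample. The p-values therefore rest on how these 6 samples vary, and that variation may be technical. Nxf2 is a germ cell relative of the mRNA export receptor gene Nxf1, and the submitters' design text gives similar testis weights for both genotypes at this age.

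In spermatids most histones are removed from the DNA and replaced, first by transition proteins and then by protamines. The protamines of Prm1 and Prm2 are small arginine-rich proteins that pack the sperm nucleus tightly. Testis linker histones come earlier or alongside: H1f6 is known from pachytene spermatocytes onward, H1f7 from round spermatids and H1f9 from elongating spermatids. The mRNAs of transition proteins and protamines are made in round spermatids and stored for days before translation. At day 21 the first wave of spermatogenesis has only begun to form round spermatids. Genes first expressed in spermatids are thus at the start of their expression, while H1f6 is known from the earlier pachytene stage.

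The promoters of Tnp1, Prm1 and Prm3 are shown because these genes have a probe set with all KO values below all WT values, and that of H1f9 because its probe set was the only one of the 12 called. They are the 120 bases before the RefSeq start site, 5′ to 3′ on the gene's strand, with matches to TGANNTCA, TGACG (both strands) or TATAAA (gene's strand) in capitals. In GRCm38.p6 they lie at chr1:73015900-73016019 (minus strand) for Tnp1, chr16:10796824-10796943 (minus) for Prm1, chr16:10790915-10791034 (minus) for Prm3 and chr11:94967473-94967592 (plus) for H1f9.
Tnp1: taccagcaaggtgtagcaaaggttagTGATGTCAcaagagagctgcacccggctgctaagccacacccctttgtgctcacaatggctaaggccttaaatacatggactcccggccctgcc
Prm1: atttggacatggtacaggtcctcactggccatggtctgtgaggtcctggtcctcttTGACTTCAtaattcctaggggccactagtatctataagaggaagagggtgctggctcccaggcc
Prm3: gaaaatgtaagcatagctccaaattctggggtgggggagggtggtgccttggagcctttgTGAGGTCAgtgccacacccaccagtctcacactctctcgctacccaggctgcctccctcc
H1f9: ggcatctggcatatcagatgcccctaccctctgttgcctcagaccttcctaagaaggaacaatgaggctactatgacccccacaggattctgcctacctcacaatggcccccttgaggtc
The 8-base form TGANNTCA, a relaxed form of the cyclic AMP response element that CREM binds, was present in the 250 bases before the start site of 3 of the 9 genes, as TGATGTCA in Tnp1, TGACTTCA in Prm1 and TGAGGTCA in Prm3. It was present in 11.9% of 32851 RefSeq promoter windows of the same length. This relaxed form was added after the windows had been read. The full element TGACGTCA, which is 1 case of TGANNTCA, was in none of the 9 windows and in 1.55% of all. Its 5-base part TGACG was in 2 of the 9, H1f7 and H2bc1, and in 17.8% of all. TATAAA was in 1 of the 9, H2bc1, and in 7.59% of all. None of these letters was in the H1f9 window. A match describes the sequence only and shows no binding.

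The deposited values are linear signals, 1 per probe set and array, with array medians between 37.1 and 40.9. The signal of the only Nxf2 probe set was 116.0, 106.2 and 130.8 in KO replicates 1 to 3 and 374.3, 340.4 and 385.9 in WT replicates 1 to 3. Each KO array thus lay below each WT array for the targeted gene (log2 fold change -1.59 ± 0.0999, SE; limma, adjusted p = 0.000488). Where this probe set lies relative to the deleted part is not given in the labels.

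Most of the 12 probe sets were dim at day 21. A reference of 126 probe sets for 112 genes read mainly outside the testis (keratin-associated proteins and olfactory, vomeronasal and taste receptors) had a median signal of 0.804 to 1.47 and a 95th percentile of 11.6 to 14.3 on the 6 arrays. The test was limited to probe sets with a 6-array mean of at least 20.5, called the dim limit here. By this limit 4 of the 12 were tested, 1 each for H1f9, Tnp1, Tnp2 and Prm1, and the other 8 had means between 4.64 and 18.0. On every array, 7 of those 8 lay under the dim limit, and 2 of the Prm1 probe sets lay under the reference's 95th percentile. No probe set lay under the reference's median on all 6 arrays.

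The arrays differed in how many of the 12 probe sets rose out of this dim range. Above the reference's 95th percentile were 4, 4 and 5 in KO replicates 1 to 3, against 6, 6 and 10 in WT replicates 1 to 3. Among the 8 under the dim limit the counts were 1, 1 and 1 in KO and 2, 2 and 6 in WT. The excess thus lay mainly in WT replicate 3. It held the highest of the 3 WT values in 7 of those 8 probe sets, against 29.3% of all probe sets under the dim limit.

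**Figure D1:**
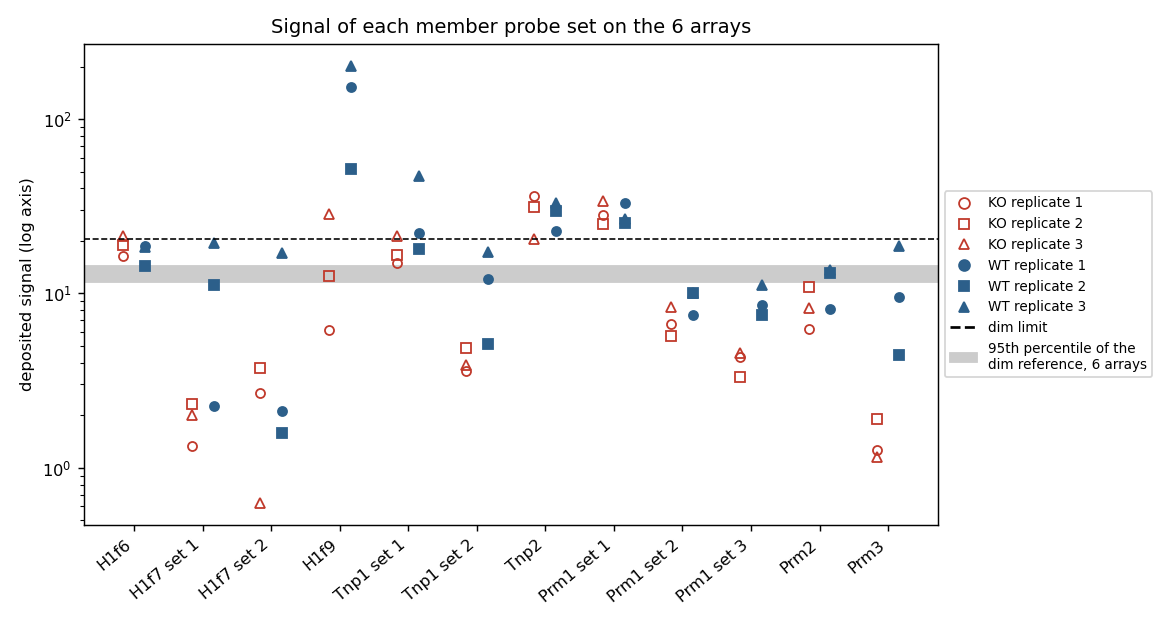
Deposited signal (log axis) of each of the 12 probe sets on the 3 KO (open red) and 3 WT (filled blue) arrays, with the dim limit of 20.5 (dashed) and the reference's 95th percentiles of 11.6 to 14.3 (grey band); sets of 1 gene are numbered from the brightest. H1f9 alone has all 3 WT signals above the dim limit and above all KO signals (51.9 to 202.1 against 6.14 to 28.4), and Prm3 is separated at lower signals (4.43 to 18.8 against 1.15 to 1.9).

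Among the linker histones, H1f9, a linker histone of the condensing spermatid nucleus, fell in KO. Its probe set 1448512_at had signals of 6.14, 12.6 and 28.4 in KO replicates 1 to 3 and of 153.7, 51.9 and 202.1 in WT replicates 1 to 3. All KO values lay below all WT values, with WT replicate 2 nearest to the KO arrays at 1.83 times the highest KO value. The group means were 15.7 ± 11.4 in KO and 135.9 ± 76.7 in WT (SD, n = 3 each), an 8.66-fold ratio of means. On the log2(signal + 7) scale used for testing, the fold change was -2.59 ± 0.454 (SE; 95% interval -3.6 to -1.58; limma, adjusted p = 0.012). Among the 27022 tested probe sets H1f9 ranked 8 by depth of fall and 427 by p. The call was lost without WT replicate 1 (log2 fold change -2.41, adjusted p = 0.0661) and without limma's intensity trend (adjusted p = 0.0554), and without WT replicate 2 the log2 fold change was -3.13 (adjusted p = 0.00143). KO replicates 1 and 2 lay under the reference's 95th percentile, so the probe set passed the dim limit through its WT arrays and the size of the ratio rests on dim KO values.

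H1f6, the linker histone of spermatocytes and early spermatids, was dim and showed no separation. Probe set 1450608_at had signals of 16.4, 19.0 and 21.3 in KO and 18.6, 14.4 and 18.4 in WT. The groups overlapped, and each array lay above the reference's 95th percentile. H1f7, which marks the tip of the round spermatid nucleus, was near background in KO on both of its probe sets. The signals of 1430181_at were 1.33, 2.32 and 2.01 in KO and 2.26, 11.2 and 19.5 in WT, so that WT replicate 1 lay among the KO values. For 1441954_s_at they were 2.69, 3.75 and 0.629 in KO and 2.1, 1.59 and 17.1 in WT, where WT replicate 3 alone stood out. In a fit without the dim filter the adjusted p values were 0.75 for H1f6 and 0.176 and 0.563 for H1f7.

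The transition proteins did not pass the test. Tnp1, the more abundant transition protein of mouse spermatids, had signals of 15.0, 16.7 and 21.3 in KO and 22.1, 18.0 and 46.9 in WT on its brighter probe set 1415924_at. KO replicate 3 and WT replicate 2 overlapped, and the log2 fold change was -0.47 ± 0.26 (SE; 95% interval -1.05 to 0.11; limma, adjusted p = 0.262). Without WT replicate 3 this probe set lay under the dim limit, with a log2 fold change of -0.14. The dimmer Tnp1 probe set 1438632_x_at had signals of 3.57, 4.87 and 3.86 in KO and 12.1, 5.09 and 17.3 in WT. Its groups did not overlap, but WT replicate 2 lay at 1.05 times the highest KO value (limma without the dim filter, adjusted p = 0.16). Tnp2, which acts beside Tnp1 in chromatin condensation, had signals of 36.0, 31.2 and 20.4 in KO and 22.7, 29.7 and 33.0 in WT. WT values lay within the KO range, with a log2 fold change of 0.02 ± 0.195 (SE; 95% interval -0.42 to 0.45; limma, adjusted p = 0.967).

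The protamines lay mostly in the dim range. Prm1, the protamine that all mammalian sperm carry, has 3 probe sets that differed in what they showed. The brightest, 1415955_x_at, had signals of 28.2, 24.9 and 33.8 in KO and 32.8, 25.2 and 26.6 in WT, with overlapping groups (log2 fold change 0.03 ± 0.155, SE; 95% interval -0.32 to 0.38; limma, adjusted p = 0.92). On 1439379_x_at the signals were 4.33, 3.32 and 4.54 in KO and 8.62, 7.49 and 11.2 in WT, without overlap, a log2 fold change of -0.54 ± 0.128 (SE; limma without the dim filter, adjusted p = 0.0728). The third, 1437054_x_at, had signals of 6.68, 5.69 and 8.35 in KO and from 7.5 to 10.1 in WT, which overlap. The 3 probe sets of Prm1 therefore disagreed. In Affymetrix naming the endings _x_at and _s_at mark probes that can also match other transcripts, and which of the 3 reads Prm1 was not tested.

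Prm2, made as a precursor that is trimmed on the DNA, had signals of 6.26, 10.9 and 8.23 in KO and 8.09, 13.0 and 13.6 in WT, with KO replicate 2 above WT replicate 1. Prm3, whose gene lies between Prm2 and Tnp2 on chromosome 16, had signals of 1.26, 1.9 and 1.15 in KO and 9.54, 4.43 and 18.8 in WT. Its groups did not overlap, and the lowest WT value was 2.33 times the highest KO value. The ratio of means was 7.59, but on the log2(signal + 7) scale the difference was -1.01 ± 0.256 (SE; limma without the dim filter, adjusted p = 0.0843), and it ranged from -2.11 with a pseudocount of 1 to -0.29 with a pseudocount of 39. Its KO signals of 1.15 to 1.9 were near the reference's median. WT replicates 1 and 2, at 9.54 and 4.43, also lay under the reference's 95th percentile, and only WT replicate 3 lay above it. On every array Prm3 was under the dim limit, so its separation lies within the dim range. Tnp2, the neighbour of Prm3, overlapped between the genotypes where Prm3 did not, and the difference between them was not tested.

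**Figure D2:**
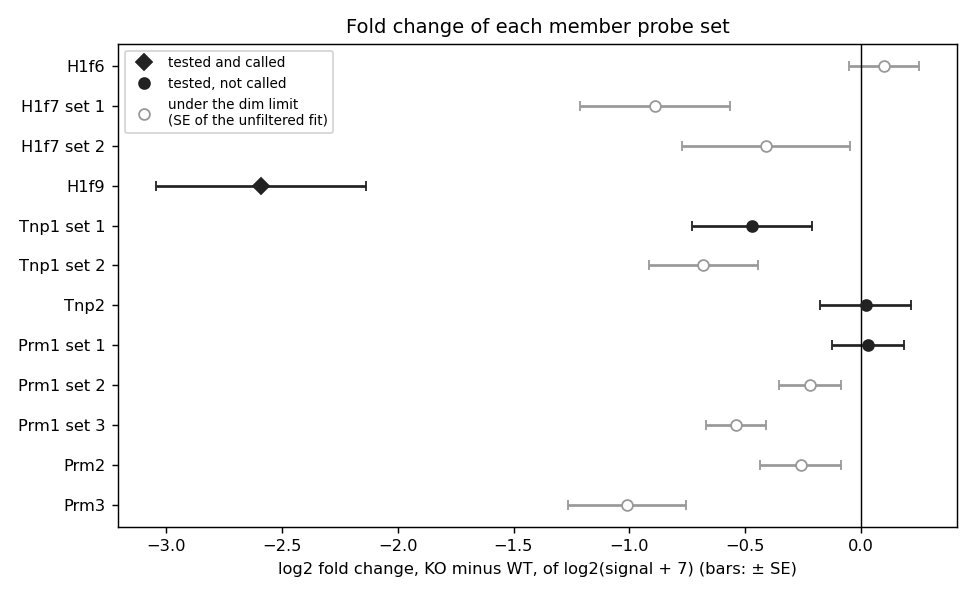
Log2 fold change (KO minus WT, of log2(signal + 7)) of each of the 12 probe sets with its standard error; filled symbols were tested, open symbols lie under the dim limit and have the standard error of the fit without that limit. H1f9 stands at -2.59, Prm3 at -1.01, and H1f6, Tnp2 and the brightest Prm1 set lie within their error of 0.

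Of the 4 tested probe sets 1 was called, that of H1f9, and it fell. The background is 7.49% called among all 27022 tested, 5.23% falling and 2.26% rising (limma, adjusted p under 0.05). All KO values lay below all WT values in 4 of the 12 and above in none, where the background is 11.0% and 15.1% of all probe sets. Among the 8 under the dim limit, 3 had this separation (Tnp1, Prm1 and Prm3), against 5.32% of all probe sets under that limit. None of the 8 had the opposite separation, against 9.17%. Tnp1 and Prm1 each have another probe set that overlapped, and Prm3 has none. The log2 fold change was below 0 in 9 of the 12, and in 7 of the 8 under the dim limit, against 40.2% of all such probe sets. The median was -0.44 over the 12, beside 0.037 over all tested probe sets. Without the dim filter none of the 8 was called (limma), against 2.23% of all 45037 probe sets, although 4 had an unadjusted p under 0.05. Adjusted p values were 0.0728 to 0.176 in those 4 and up to 0.75 over the 8. Signals this low do not show that the transition protein and protamine genes were unchanged.

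Markers of spermatids moved with H1f9. A list of 15 elongating spermatid genes with a probe set held none of the genes described above. Of its 10 tested genes 9 fell and none rose, with a summed signal of 733 to 824 in KO and 1282 to 2188 in WT. The list is named by marker stage. Round spermatids have only begun to form at day 21, so its signal does not show that elongating spermatids were present. In a list of 20 round spermatid genes 18 of 19 tested fell, with sums of 4788 to 5133 in KO and 6718 to 7369 in WT. In a list of 10 pachytene genes 4 fell and none rose, with sums of 9340 to 10546 and 10731 to 11374. Over all 12971 tested genes 7.37% fell and 2.98% rose. No marker was at 0. The ratio of WT to KO means was 8.66 for H1f9, 2.26 for the elongating, 1.45 for the round spermatid and 1.1 for the pachytene sums, and the differences between these ratios were not tested. The sums are carried by a few bright genes, such as Dnajb3, Oaz3 and Akap3 in the elongating list. Over the tested genes the median log2 fold change was -1.53 in the elongating and -0.88 in the round spermatid list. Log2 fold changes in the elongating list ran from -2.66 to -0.51 over the tested genes and from -0.3 to -0.03 under the dim limit. The deepest, in Smcp and Capza3, were of the size of H1f9's. Smcp, a sperm mitochondrial capsule gene, had signals of 16.6, 18.6 and 44.4 in KO and 236.9, 83.9 and 304.4 in WT (log2 fold change -2.6; limma, adjusted p = 0.00951). Capza3, an actin-capping subunit of spermatids, had signals of 4.05, 0.817 and 14.4 in KO and 76.3, 37.0 and 119.4 in WT (log2 fold change -2.66; limma, adjusted p = 0.00751). Both lay lower on each KO array, with WT replicate 2 the lowest WT array as for H1f9. All KO signals of Capza3 lay under the dim limit, so it passed that limit through its WT arrays. Among called genes of the elongating list, the KO means of Akap4 (5.43) and Rnf151 (12.6) also lay under it. In the round spermatid list those of Spaca3 (11.9), Actl7a (12.8), Tssk2 (15.1) and Catsper3 (11.0) did. Genes that passed the limit only through WT arrays could enter these counts only as lower in KO. In whole testes, fewer cells of a type and less RNA per cell cannot be told apart.

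The WT arrays were ordered alike in H1f9 and in the elongating spermatid sum. Relative to the WT mean, the log2 of the H1f9 signal was 0.18, -1.39 and 0.57 in WT replicates 1 to 3, and that of the elongating sum was 0.05, -0.46 and 0.31. The sum of the 8 probe sets under the dim limit stood at -0.34, -0.38 and 0.53, again highest in WT replicate 3. The KO arrays were also ordered alike in both, over a wide range for H1f9 (-4.5, -3.39 and -2.28 in KO replicates 1 to 3) and a narrow one for the elongating sum (-1.27, -1.16 and -1.1). The first 2 of these H1f9 values lay under the reference's 95th percentile. The round spermatid sum kept the WT order (0.02, -0.08 and 0.05) but not the KO order (-0.47, -0.56 and -0.57). The sum of the 8 dim probe sets did not keep the KO order either (-1.02, -0.75 and -0.8). Summed spermatogonial, Sertoli, Leydig and immune markers were higher on each KO array than on each WT array, with sums of 3459 to 3609 against 2747 to 2870 for spermatogonia, 6320 to 6713 against 5525 to 5805 for Sertoli cells, 2032 to 3233 against 1649 to 2000 for Leydig cells and 1735 to 2710 against 1124 to 1647 for immune cells. Of their tested genes 4 of 10, 4 of 10, 1 of 5 and none of 9 rose, in that order, and none fell. Myoid and endothelial sums overlapped, at 2083 to 2388 in KO and 2023 to 2128 in WT, where 1 of 8 genes rose. In 6 epididymal genes, tissue that can adhere to a testis, 3 of 4 tested fell and 1 rose, with sums of 624 to 765 in KO and 825 to 861 in WT. Most of these epididymal sums came from 1 gene, Aqp9, with means of 524.1 in KO and 653.2 in WT. The part of any of these cell types or tissues in the H1f9 result was not tested.

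**Figure D3:**
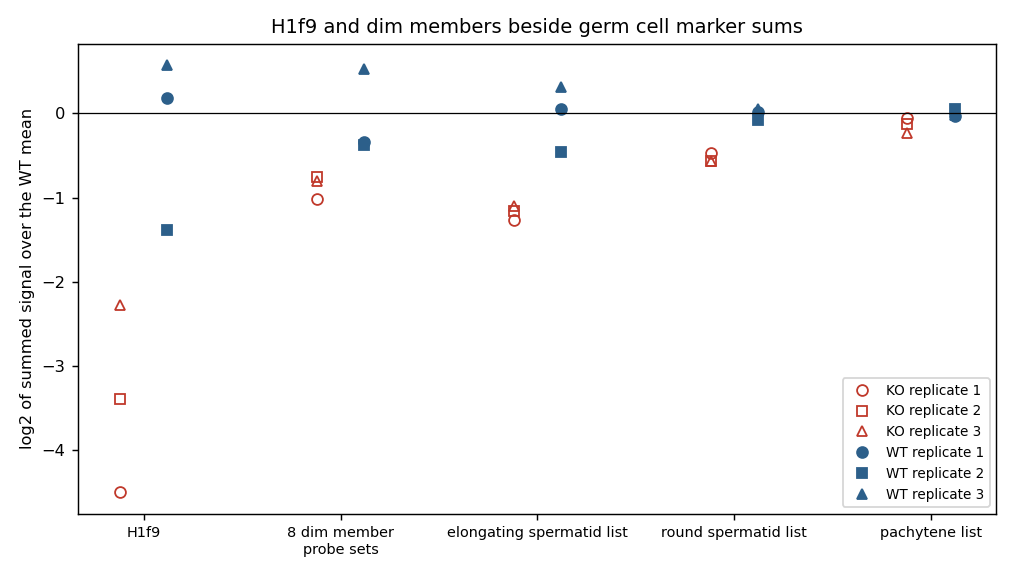
Log2 of the signal of H1f9, of the summed signal of the 8 dim probe sets and of 3 germ cell marker lists, each against its WT mean (the line at 0), for the 3 KO (open red) and 3 WT (filled blue) arrays. H1f9 spans -4.5 to -2.28 in KO, and WT replicate 2 is the lowest WT array for H1f9 (-1.39) and for the elongating list (-0.46).

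Over the 6 arrays the patterns most like that of H1f9, by Pearson's r among 22969 tested probe sets with 1 symbol, were those of Abhd10 (0.9983), Gm19723 (0.9979), Gm9999 (0.9971), Catsper3 (0.997) and Lyzl1 (0.9968). These points share the genotype difference and the order of the WT arrays, and 48 probe sets exceeded an r of 0.99. Catsper3, a subunit of the sperm calcium channel that is also in the round spermatid list, had signals of 6.03, 10.9 and 16.1 in KO and 48.5, 21.9 and 59.6 in WT. Lyzl1, a lysozyme-like gene of the testis, had signals of 3.07, 6.67 and 23.0 in KO and 102.6, 32.5 and 153.5 in WT. Abhd10, a mitochondrial hydrolase gene, followed the same order with a much smaller range, 259.0 to 275.7 in KO and 286.5 to 306.9 in WT, and did not pass the test (limma, adjusted p = 0.185). Among the other 11 probe sets, r with H1f9 was 0.92 for Prm3, 0.5 for Prm2, 0.05 for H1f6 and -0.27 for Tnp2. It differed between probe sets of 1 gene, at 0.18, 0.66 and 0.94 for Prm1 from the brightest to the dimmest, 0.79 and 0.91 for Tnp1 and 0.64 and 0.51 for H1f7.

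In a list of histone removal and nuclear remodelling factors outside this group, 1 of 24 tested genes fell and 2 rose (4.17% and 8.33%). Over all 12971 tested genes 956 fell and 386 rose (7.37% and 2.98%). The median log2 fold change was -0.04 in the list, beside 0.04 over all. Brdt, the bromodomain protein that reads acetylated histones in spermatids, fell: its signals were 546.4, 475.8 and 478.4 in KO and 613.6, 641.2 and 625.0 in WT, without overlap (log2 fold change -0.32; limma, adjusted p = 0.0228). Its other 2 probe sets had log2 fold changes of -0.3 and -0.12 and did not pass (limma, adjusted p = 0.168 and 0.29). Its call was lost on leaving out KO replicate 2 or 3 or any of the 3 WT replicates (adjusted p = 0.0539 to 0.0944). Cdyl, a chromodomain corepressor, rose from a mean of 280.9 ± 20.2 on the WT arrays to 375.7 ± 12.5 on the KO arrays (SD of 3 arrays each, here and for the genes that follow; limma, adjusted p = 0.0158), and Msl3, of the complex that acetylates histone H4, from 208.5 ± 30.3 to 290.6 ± 21.0 (limma, adjusted p = 0.0318). The Cdyl call was lost without WT replicate 1 (adjusted p = 0.0937) and that of Msl3 without any single array (adjusted p = 0.0532 to 0.0842). Without limma's intensity trend Brdt and Msl3 were not called. Psme4, also in this list, was called by 1 of its 6 tested probe sets, but not by its brightest, and so is not counted. Hmgb4, a testis HMG-box protein, lay under the dim limit, with signals of 4.84, 0.77 and 8.33 in KO and 19.6, 6.75 and 47.9 in WT that overlapped.

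Of 13 tested transcription regulators of spermatid genes 3 fell and none rose (median -0.23). Gtf2a1l, the germ cell TFIIA subunit, fell from 1062.2 ± 24.8 to 808.9 ± 89.8 (limma, adjusted p = 0.0159). Crem, the activator of many postmeiotic genes, fell from 653.2 ± 28.6 to 498.8 ± 55.8 on its brightest probe set (limma, adjusted p = 0.0234). Its other 3 tested probe sets had log2 fold changes of -0.07, -0.04 and 0.11 and did not pass. Tbpl1, the TBP-like factor needed for spermatid development, fell from 1220.2 ± 5.99 to 1040.6 ± 77.9 on its brightest probe set (limma, adjusted p = 0.0343). The other tested Tbpl1 probe set had a log2 fold change of -0.08 and did not pass (limma, adjusted p = 0.618). Without WT replicate 1 none of the 3 genes was called (adjusted p = 0.069 to 0.128), and without WT replicate 2 Crem was not (adjusted p = 0.0641). None of the 3 was called without limma's intensity trend, and with no dim filter only 1 gene of the list fell. Tbpl1 passed on leaving out KO replicate 1 but not on leaving out any other single array (adjusted p = 0.0716 to 0.128). Fhl5, the testis coactivator of CREM, lay under the dim limit at 7.28, 11.7 and 11.0 in KO and 24.6, 13.8 and 42.6 in WT, without overlap. Kif17, a kinesin that carries the FHL5 protein in spermatids, had signals of 24.5, 23.4 and 34.3 in KO and 67.0, 33.3 and 86.4 in WT, which overlapped at KO replicate 3 and WT replicate 2 (log2 fold change -0.94; limma, adjusted p = 0.0645).

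None of the 17 tested genes of mRNA storage and translation control was called by its brightest probe set (median -0.05). Tarbp2 was called by 1 of its 2 tested probe sets, the dimmer one. Prkra, a binding protein of double-stranded RNA, had a log2 fold change of 0.22 (limma, adjusted p = 0.0583), Ybx2, the Y-box protein that stores spermatid mRNAs, one of -0.2 (limma, adjusted p = 0.0674), and Ddx25, a helicase that exports and stores spermatid mRNAs, one of -0.23 (limma, adjusted p = 0.0686). Leaving out KO replicate 1 brought Ybx2 (adjusted p = 0.0469) and Ddx25 (adjusted p = 0.0494) past the threshold as falling, and quantile normalization brought Prkra (adjusted p = 0.0434) past it as rising and Ddx25 (adjusted p = 0.0498) as falling. In the other core histone variants 1 of 8 tested genes rose and none fell: Cenpa, the centromeric histone H3, from 172.0 ± 3.38 to 256.0 ± 31.7 (limma, adjusted p = 0.0143; adjusted p = 0.0777 without WT replicate 1). H2ax and H3f3b had log2 fold changes of -0.14 (limma, adjusted p = 0.225) and -0.33 (limma, adjusted p = 0.257). H2bl1, a spermatid H2B variant, lay under the dim limit at 4.11, 2.33 and 5.68 in KO and 12.3, 6.42 and 21.5 in WT, without overlap. Of the other linker histones 2 were tested and neither passed, H1f2 with a log2 fold change of 0.28 (limma, adjusted p = 0.29) and H1f10 with one of 0.07 (limma, adjusted p = 0.767). H1f4, a linker histone of many tissues, lay under the dim limit and was higher on each KO array, at 7.85, 9.07 and 8.8 against 3.42, 1.89 and 3.85 in WT. It was tested only without the dim filter, and was then called (limma). On every array H1f4 lay under the reference's 95th percentile, so this difference lies within the dim range. Of all 9 genes of these lists under the dim limit, Fhl5 and H2bl1 lay lower on each KO array, H1f4 lay higher, and the other 6 overlapped.

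**Figure D4:**
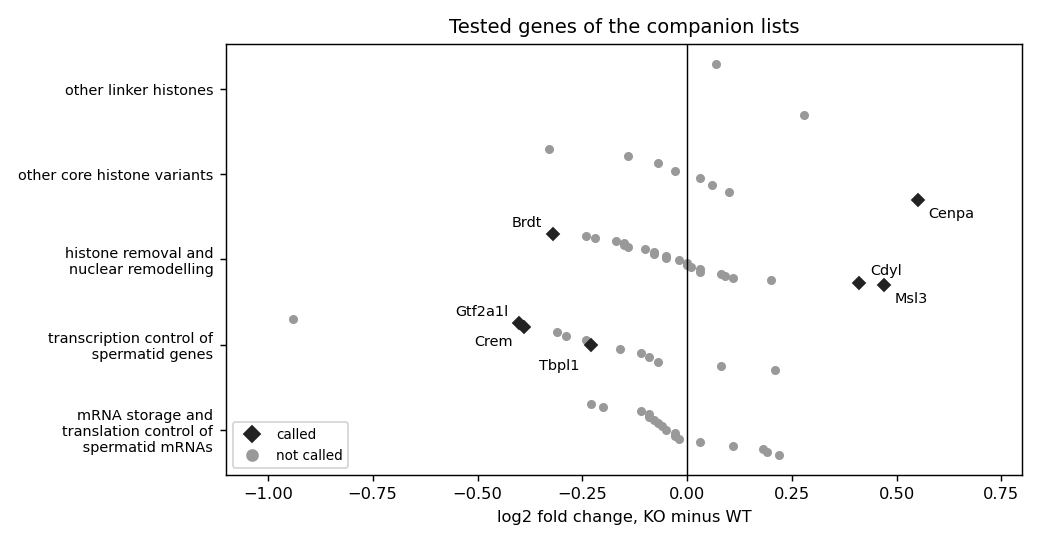
Log2 fold change (KO minus WT) of each tested gene in the 5 lists of histone exchange and spermatid gene control, 1 point per gene by its brightest probe set; diamonds with names were called. Called genes lie between -0.4 and 0.55, a narrower range than the -2.59 of H1f9.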

How the data were processed

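Whole-testis RNA of 3 KO and 3 WT samples was measured on 1-colour arrays. Per the labels' protocols, biotin was built in during linear amplification of the RNA. The deposited values are linear signal intensities, and MAS5, with no version, appears in the submitters' processing notes. Their trimmed mean, from the 2nd to the 98th percentile, was 150.0 on each of the 6 arrays.

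Control probe sets (64 of 45101) were left out, symbols were updated through Entrez identifiers, and Hils1 was read as H1f9. Tests used log2(signal + 7), the pseudocount being the rounded 25th percentile of the signals, so folds of dim probe sets are understated. The 27022 probe sets whose mean reached the 40th percentile (20.5) entered the fit, made in R 4.3.3 by limma version 3.58.1 (eBayes with intensity trend, two-sided, Benjamini-Hochberg), and were called at an adjusted p under 0.05. For lists, a gene was represented by its brightest probe set. The number of arrays limits the precision. Promoter windows are RefSeq's (GRCm38.p6). Named were all members, Nxf2, the 3 genes of lowest p in each list and the 5 patterns most like H1f9. Hmgb4, Fhl5, Kif17, H2bl1, H1f4, Psme4 and Tarbp2 were chosen after their values were seen. So were the markers Dnajb3, Oaz3, Akap3, Akap4, Rnf151, Smcp, Capza3, Spaca3, Actl7a, Tssk2 and Aqp9. The members and lists were chosen with earlier results of these data known.

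The alternatives were quantile normalization, median centring, pseudocounts of 1 and 39, no dim filter and one at the 60th percentile, no intensity trend, array weights, a block for the replicate number, and leaving out each array.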

Additional observations from a re-analysis of the deposited data

How the results depend on the processing

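The fall of H1f9 kept its direction under all 16 alternatives (log2 fold change -3.13 to -1.58), and its adjusted p ranged from 3.69e-05 to 0.0661. The count of called member probe sets, 1, became 0 without the intensity trend and, in a setting added after the values were seen, with no dim filter and a pseudocount of 39 together. On leaving out single arrays it was 0 to 1. Of all probe sets, 2024 were called. The count was 1005 with no dim filter, 743 without the intensity trend and 7217 with array weights, and it was 164 to 1547 on leaving out single arrays. The split of 1414 falling and 610 rising probe sets became 1382 and 247 with median centring, 3446 and 3771 with array weights. With the replicate number as a block 4503 were called (2330 falling, 2173 rising), and the member count stayed at 1. With this block Prkra (adjusted p = 0.0191), Ybx2 (adjusted p = 0.038) and Ddx25 (adjusted p = 0.0442) also passed (limma), as they did with array weights (adjusted p = 0.0268, 0.00772 and 0.0393), and Prkra also with the dim filter at the 60th percentile (adjusted p = 0.0497). The submitters' design text speaks of 3 pairs of testes, without saying what a pair shared or whether equal numbers mark one. Same-numbered KO and WT arrays had correlated deviations of 0.079, 0.457 and 0.266. WT replicate 1 correlated better with KO replicate 3 (0.112), and the other differently numbered arrays had negative values, from -0.334 to -0.021. These values do not settle whether equal numbers mark pairs, and the main fit did not take them as such. Taking the dim limit in place of the reference as background raised the count of probe sets near background on all arrays from 2 to 7. The signs of Tnp2, the brightest Prm1 set, Prm2 and the dimmer H1f7 set changed under some settings, none of them called. Prm3, both Tnp1 sets and the other Prm1 sets were lower in KO under all 16. The causes were not tested. Signals near background limit what the 8 probe sets under the dim limit can show.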
